A study of Mus musculus with 12 samples.

Results

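The thermogenic adipocyte genes are a set of 10 genes named for their roles in heat production by brown and beige fat: Ucp1, Ucp3, Dio2, Ppargc1a, Prdm16, Cidea, Cpt1b, Ebf2, Adrb3 and Kcnk3. They were taken by gene symbol from arrays that measured 30176 genes, and 9 of the 10 had a transcript cluster with that single symbol, 1 cluster each. Adrb3, the beta-3 adrenergic receptor of adipocytes, was not analysed here. RNA came from the ovaries and the gonadal fat pads of C57BL/6J female mice that carried a silicone capsule from 25 days of age for about 60 days. The capsule held 5 mg of dihydrotestosterone (DHT), an androgen that is not converted to estrogen, in the DHT-treated mice, and was empty in the placebo-treated (control) mice, as a model of the androgen excess of polycystic ovary syndrome. Each of the 4 groups had 3 arrays, from mice housed at room temperature, and no mouse carried a transgene or a deleted gene. The labels call the replicates biological, without saying whether an ovary and a fat pad came from the same mouse.

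Brown and beige adipocytes burn fatty acids in mitochondria whose inner membrane leaks protons through UCP1, so that energy leaves as heat instead of ATP. Noradrenaline starts this through beta-adrenergic receptors and cyclic AMP, which frees fatty acids from lipid droplets and switches on the thermogenic genes together with thyroid hormone. The gonadal depot of the mouse is white fat, a store of triglyceride with few beige cells, and the ovary is not a thermogenic tissue but is held in fat that can be dissected with it.

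The deposited values are log2 signals, and 1 unit is a 2-fold difference. Array medians ran from 4.35 to 4.43 in the ovaries and from 3.30 to 3.52 in gonadal fat, so levels were compared within a tissue only. In the fat columns 40.2% of the clusters carried the value of another cluster and were re-paired with their names first, which applies to Dio2, Cidea, Cpt1b and Ebf2 among the members. On the re-paired clusters the fat means followed the ovary means with an r of 0.946 across clusters, against 0.0139 as deposited. Genes were tested in a tissue if they lay above the array median on at least 3 of the 6 arrays, and are said to have risen or fallen if the adjusted p (limma, Benjamini-Hochberg over all genes tested) was at most 0.10. In bulk tissue, fewer cells of a type and less RNA per cell cannot be told apart.

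The start sites of Ucp1, Ucp3 and Dio2 are printed because their regulation by cyclic AMP and nuclear receptors is the textbook route to thermogenesis. The RefSeq windows (GRCm38.p6) run from 250 bases before the start to 50 after it and were given for 5 of the 10 members, the others being Ppargc1a and Prdm16. Cidea, Cpt1b, Ebf2, Adrb3 and Kcnk3 have no entry. Capitals mark the cyclic AMP response element (TGACGTCA), its shorter core (TGACG) and the nuclear receptor core (AGGTCA), read on both strands. Ucp1 lies at chr8:83290098-83290397 (plus strand), Ucp3 at chr7:100472741-100473040 (plus strand) and Dio2 at chr12:90738989-90739288 (minus strand).
Ucp1: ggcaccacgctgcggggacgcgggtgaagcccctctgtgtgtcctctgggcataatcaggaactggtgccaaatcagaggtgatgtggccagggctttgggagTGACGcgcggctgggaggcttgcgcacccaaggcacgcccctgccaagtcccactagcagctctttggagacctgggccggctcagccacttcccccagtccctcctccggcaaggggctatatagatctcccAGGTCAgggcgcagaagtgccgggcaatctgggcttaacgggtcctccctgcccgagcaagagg
Ucp3: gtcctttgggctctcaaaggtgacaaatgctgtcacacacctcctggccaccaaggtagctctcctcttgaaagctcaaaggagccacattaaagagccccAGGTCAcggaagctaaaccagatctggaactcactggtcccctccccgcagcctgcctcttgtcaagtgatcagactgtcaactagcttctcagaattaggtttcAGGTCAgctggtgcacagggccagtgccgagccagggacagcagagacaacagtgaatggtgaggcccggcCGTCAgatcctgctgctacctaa
Dio2: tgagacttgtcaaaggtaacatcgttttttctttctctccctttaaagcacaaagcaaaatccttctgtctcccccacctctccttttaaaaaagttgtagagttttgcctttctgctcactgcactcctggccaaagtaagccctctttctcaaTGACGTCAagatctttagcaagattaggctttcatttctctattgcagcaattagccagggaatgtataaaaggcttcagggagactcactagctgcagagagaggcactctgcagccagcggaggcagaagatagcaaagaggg
The full element was found in the Dio2 window alone among the 5, at position -95 with the start counted as 0, and in 1.8% of all 32851 windows. TGACG, which also lies inside the full element, was found in 4 of the 5 windows, at -147 in Ucp1 and at 27 in Ucp3, and in 20.8% of all windows. AGGTCA was found in Ucp1 at -14 and in Ucp3 at -149 and -44, which makes 2 of the 5 windows against 16.3% of all. The androgen and glucocorticoid receptor core AGAACA and the EBF palindrome were found in 0 of the 5, against 19.0% and 0.9% of all windows. A match is a run of letters and no evidence of binding.

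In gonadal fat, the 9 measured genes did not move as a block. Ebf2 rose 1.98-fold with DHT, Kcnk3 and Ucp3 fell by 0.70 and 0.49 on the log2 scale, and the other 6, Ucp1 among them, did not pass the test. That is 1 riser and 2 fallers of 9, where 2.65% of the 19251 genes tested rose and 1.22% fell (3.87% in all). The members were chosen with earlier results of these data known, so these shares describe them and test nothing. With median-centred arrays the risers were 84.2% of all called genes, against 68.6% with the values as deposited. The median log2 difference of the 9 genes was -0.44, against -0.01 over all genes tested. A dysregulated gene needed an adjusted p of at most 0.10, an unadjusted p of at most 0.05 and a 2-fold change. None of the 9 met these criteria together, where 0.571% of genes did. Ucp1 was 2.35-fold lower but did not pass on the adjusted p (limma, 0.208). The 3 DHT arrays did not overlap the 3 control arrays for 3 of the 9 genes, and for 22.8% of all genes tested.

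**Figure D1:**
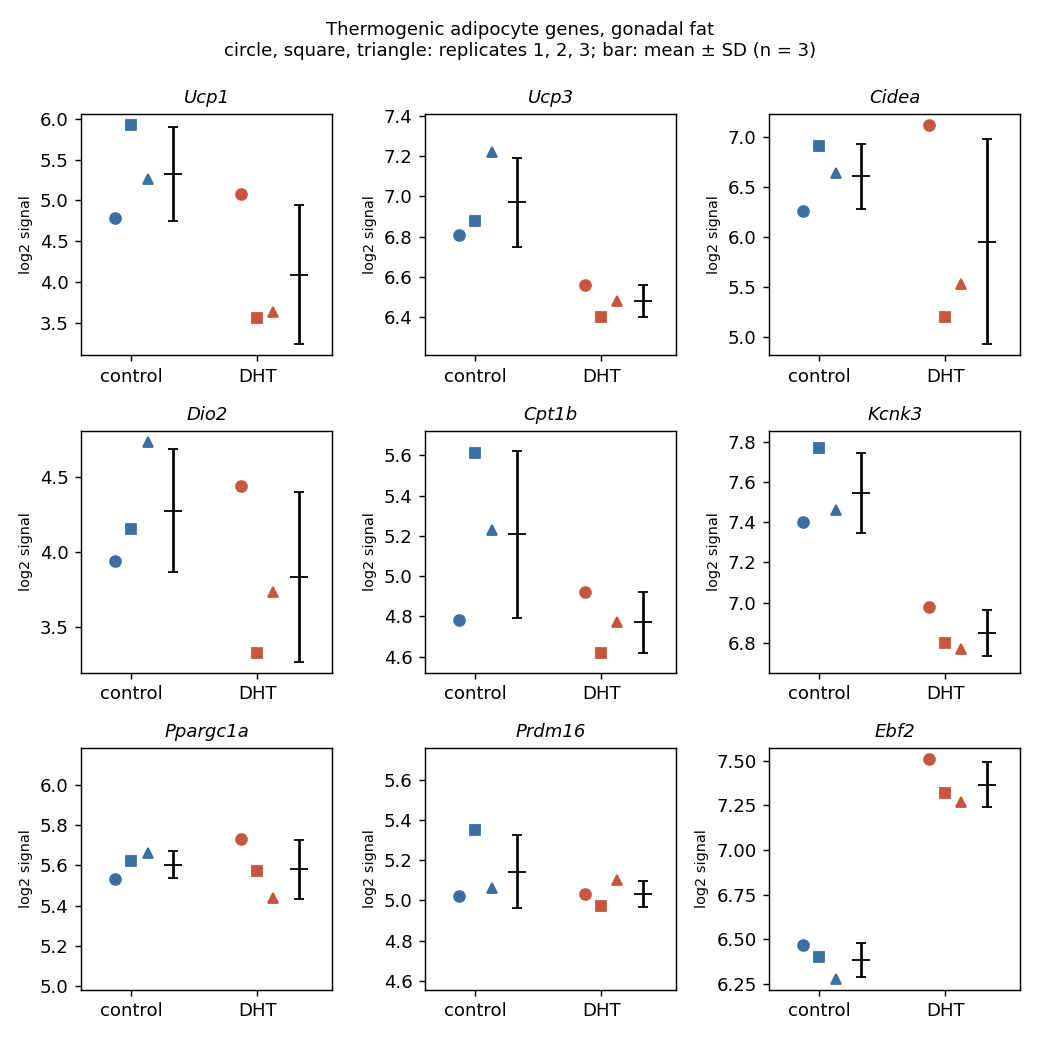
Log2 signal of the 9 thermogenic adipocyte genes on the 6 gonadal fat arrays, with control in blue, DHT in red, replicate numbers as symbols and bars for the mean ± SD (n = 3). Ebf2 lies between 7.27 and 7.51 with DHT and between 6.28 and 6.47 in controls, Kcnk3 and Ucp3 lie lower with DHT without overlap, and DHT replicate 1 reaches 5.08 for Ucp1 and 7.12 for Cidea, apart from the other DHT arrays.

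Among the genes that make heat, Ucp1 encodes the proton leak itself. Its log2 signal in gonadal fat was 5.08, 3.56 and 3.63 in DHT replicates 1 to 3 and 4.78, 5.93 and 5.26 in the controls. DHT replicates 2 and 3 lay well below every control, whereas DHT replicate 1 lay above the lowest control. The mean was 4.09 ± 0.86 with DHT and 5.32 ± 0.58 in controls (SD, n = 3), a log2 difference of -1.23 (SE 0.43, 95% interval -2.21 to -0.25). This was the widest difference of the 9, but it did not pass the test (limma adjusted p = 0.208). The value turned on single arrays. It was -1.73 without DHT replicate 1 (adjusted p = 0.0454), -0.97 without DHT replicate 2 (adjusted p = 0.484) and -0.93 without control replicate 2 (adjusted p = 0.428), the lowest and highest of the 6 fits being -1.73 and -0.93. The adjusted p was 0.0665 with the spread estimated from all 12 arrays and 0.378 with the skeletal muscle marker mean as a covariate.

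Ucp3 encodes a relative of UCP1 found mostly in skeletal muscle and brown fat, where it is tied to fatty acid handling. Its log2 signal was 6.56, 6.40 and 6.48 with DHT and 6.81, 6.88 and 7.22 in controls, so that the highest DHT array stayed below the lowest control. Ucp3 fell by 0.49 on the log2 scale (SE 0.12, limma adjusted p = 0.0963). The call rests on a narrow margin. It was kept without control replicate 1 (adjusted p = 0.0896) and lost without any other single array (adjusted p between 0.147 and 0.327), and with median-centred arrays the difference was -0.42 (adjusted p = 0.203).

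Skeletal muscle transcripts stood apart on 1 array of the fat set, control replicate 3, which also had the highest Ucp3 signal. The mean log2 signal of 15 skeletal muscle markers was 6.78 there and between 4.57 and 5.07 on the other 5 arrays, and the fast myosin gene Myh1 read 8.03 there against 3.29 to 3.88 elsewhere. The marker Acta1 did not follow this pattern. It read 8.62, 9.18 and 9.40 with DHT and 7.67, 7.80 and 8.71 in controls, so DHT replicates 2 and 3 lay above control replicate 3. Its log2 difference was 1.01 (limma adjusted p = 0.143), the smallest adjusted p of the 14 muscle markers tested. When the fit was adjusted for the mean of the 15 markers, a setting added once the data had been seen, the Ucp3 difference was -0.39 (adjusted p = 0.199). Without control replicate 3 it was -0.37 (adjusted p = 0.251).

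Cidea encodes a lipid droplet protein abundant in brown fat, and Cpt1b the muscle-type carnitine palmitoyltransferase, which admits long-chain fatty acids to mitochondria. Cidea read 7.12, 5.20 and 5.53 with DHT and 6.26, 6.91 and 6.64 in controls. As for Ucp1, DHT replicates 2 and 3 lay below all controls, but DHT replicate 1 was the highest array of all 6. The difference was -0.66 (SE 0.44, 95% interval -1.68 to 0.37, limma adjusted p = 0.51), and it was -1.24 without DHT replicate 1 (adjusted p = 0.0366), -0.28 without DHT replicate 2 (adjusted p = 0.883) and -0.44 without DHT replicate 3 (adjusted p = 0.606). Cpt1b read 4.92, 4.62 and 4.77 with DHT and 4.78, 5.61 and 5.23 in controls, which overlap at control replicate 1. Its difference was -0.44 (SE 0.20, 95% interval -0.89 to 0.01, adjusted p = 0.325), with -0.65 without control replicate 1 (adjusted p = 0.0929) and -0.23 without control replicate 2 (adjusted p = 0.5995).

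Ucp1 and Cidea were both lowest on DHT replicates 2 and 3. Their highest arrays differed, control replicate 2 for Ucp1 (5.93) and DHT replicate 1 for Cidea (7.12). Over the 6 fat arrays they had a Pearson's r of 0.92, given as a description since the arrays share the group difference and the points are few. The genes tested in fat whose pattern was most like that of Ucp1 by this measure were Anp32e (r = 0.982), Rpl36-ps7 (0.977), Pex5 (0.976), Mgst2 (0.973) and Gstp3 (0.969). Ucp1 was also the member with the largest SD over these arrays, 0.94.

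Dio2 encodes the deiodinase that makes active thyroid hormone inside the cell. Its signal was near the array median, at 4.44, 3.33 and 3.73 with DHT and 3.94, 4.15 and 4.73 in controls, and the groups overlapped. The log2 difference was -0.44 (SE 0.29, 95% interval -1.12 to 0.23, limma adjusted p = 0.499). It was -0.75 without DHT replicate 1, -0.19 without DHT replicate 2, -0.21 without control replicate 3 and -0.27 with the skeletal muscle covariate, and passed in none of these.

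Kcnk3 encodes TASK-1, a leak potassium channel that sets the resting membrane potential and that is enriched in brown and beige fat. It read 6.98, 6.80 and 6.77 with DHT and 7.40, 7.77 and 7.46 in controls, with every DHT array below every control. Kcnk3 fell by 0.70 on the log2 scale (SE 0.12, 95% interval -0.98 to -0.42, limma adjusted p = 0.033), from 7.55 ± 0.20 to 6.85 ± 0.11. The direction was the same in every fit that left out 1 array, and the call was lost without DHT replicate 2 (-0.67, adjusted p = 0.16) and, narrowly, without control replicate 3 (-0.74, adjusted p = 0.1003).

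Of the 3 transcriptional regulators 1, Ebf2, passed the test. Ppargc1a encodes PGC-1alpha, the coactivator that drives mitochondrial biogenesis, and read 5.73, 5.57 and 5.44 with DHT and 5.53, 5.62 and 5.66 in controls. Its difference of -0.02 had a 95% interval of -0.26 to 0.21 (adjusted p = 0.928). Prdm16, the coregulator that directs precursors to the brown fate, read 5.03, 4.97 and 5.10 with DHT and 5.02, 5.35 and 5.06 in controls, a difference of -0.11 (95% interval -0.36 to 0.14, adjusted p = 0.662). For both genes the intervals leave out a 2-fold change in either direction.

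Ebf2 encodes a transcription factor of adipocyte precursors that opens brown fat genes to PPAR-gamma. It read 7.51, 7.32 and 7.27 with DHT and 6.47, 6.40 and 6.28 in controls, so that the groups lay apart by far more than the spread within them. The mean went from 6.39 ± 0.09 to 7.37 ± 0.12, a log2 difference of 0.98 (SE 0.10, 95% interval 0.75 to 1.21, limma adjusted p = 0.00439). It kept its call in all 6 fits that left out 1 array, with differences of 0.91 to 1.03 and adjusted p between 0.0114 and 0.0318. Ebf2 is one of the re-paired clusters, and in the deposited order it has no value in the test because the value under its name was below the filter.

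**Figure D2:**
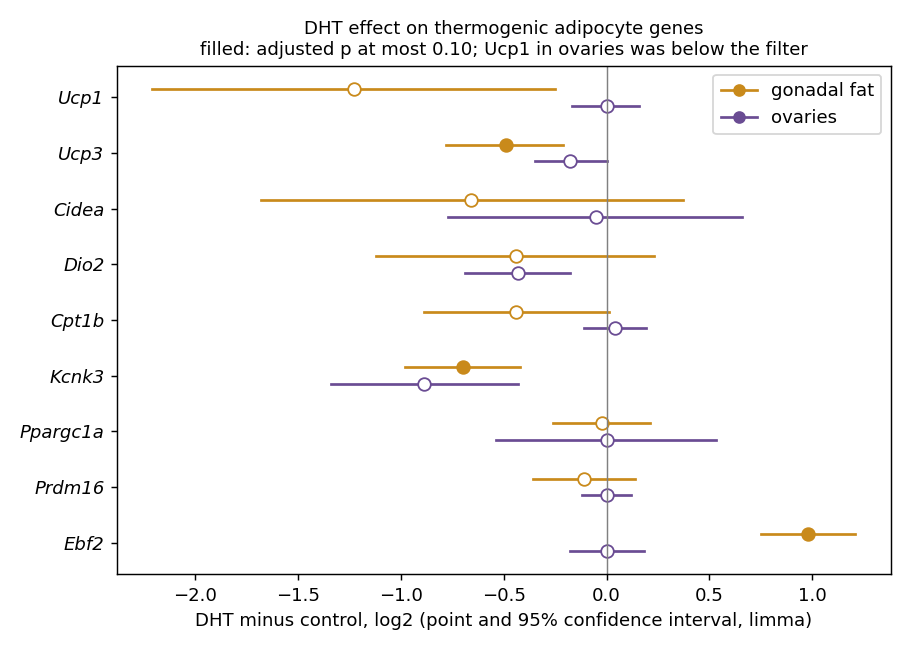
DHT minus control on the log2 scale for each gene in gonadal fat and in the ovaries, with 95% confidence intervals from limma and filled points for an adjusted p of at most 0.10. Ebf2 is the single filled point to the right of 0, at 0.98 in fat, and Kcnk3 lies left of 0 in both tissues.

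Markers of other cell types also differed between the groups in fat. The mean log2 signal of 9 white adipocyte markers was 10.35 to 10.53 with DHT and 9.85 to 9.96 in controls, and 4 of the 9 rose, led by the adipokine gene Lep. The mean of 5 mesothelial markers was 5.54 to 6.15 with DHT and 6.18 to 6.56 in controls, and that of 7 endothelial markers 7.90 to 8.04 against 7.75 to 7.88. Each of these 3 lists separated the groups (exact permutation p = 0.10, the smallest that 3 against 3 allows). The endothelial markers did not all move the same way. On the log2 scale Cldn5 (0.95) and Cdh5 (0.40) rose, whereas Vwf (-0.28) and Kdr (-0.16) were lower without passing. Pecam1, Tek and Emcn were 0.11 to 0.21 higher without passing. Smooth muscle markers ran from 6.89 to 9.46 and the 7 macrophage markers from 6.55 to 7.45, with overlap. All these lists had every marker above the array median on at least 1 array, and their part in the differences of the thermogenic genes was not tested. With the skeletal muscle mean as a covariate, the log2 difference was 0.93 for Ebf2 (adjusted p = 0.0237) and -0.73 for Kcnk3 (adjusted p = 0.0913).

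**Figure D3:**
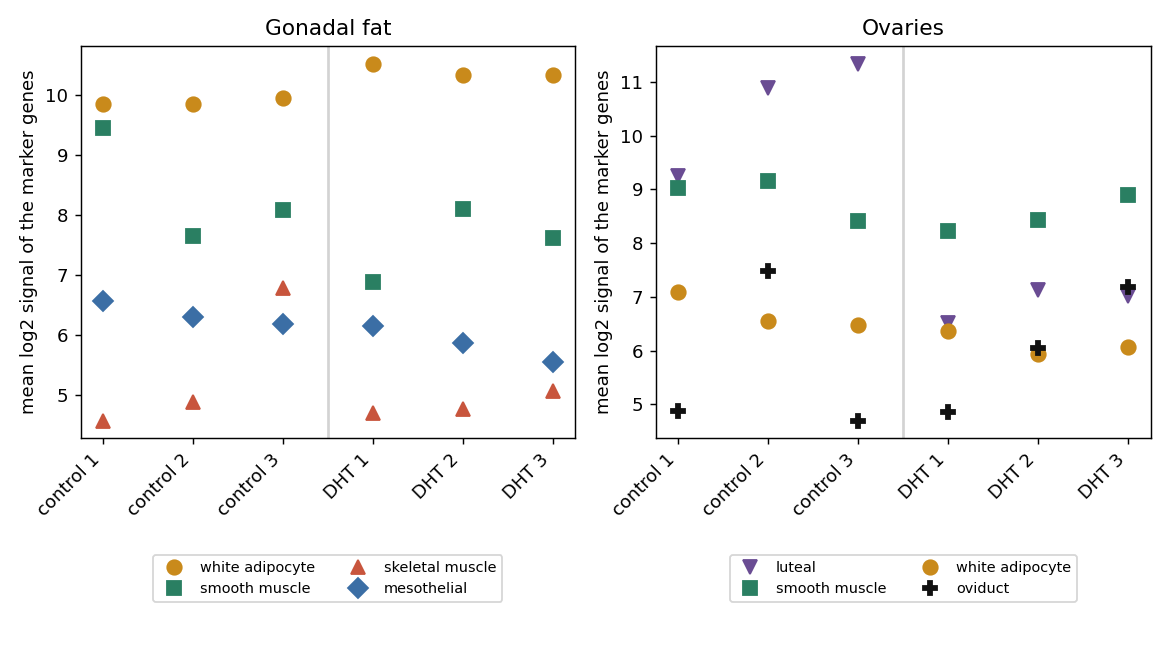
Mean log2 signal of cell type marker genes on each array, gonadal fat on the left and ovaries on the right. White adipocyte markers lie higher with DHT in fat, at 10.35 to 10.53, and lower with DHT in the ovaries, at 5.93 to 6.37, skeletal muscle markers reach 6.78 on fat control replicate 3, and oviduct markers are highest on ovary DHT replicate 3 and control replicate 2.

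The wider pathway was followed with 7 lists that hold 112 further genes, of which 94 were tested in fat. Of these, 7 rose, 2 fell and 85 did not pass, which is 9.57% called against 3.87% of all genes, and their median difference was -0.02. The lists were chosen with earlier results of these data known, so the higher share is no test of the pathway. The 2 shares were also not matched for signal level. With the stricter filter at the 75th percentile 934 of 11727 genes were called in fat, against 745 of 19251 with the main filter. Whether signal level accounts for the higher share was not tested.

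In the receptor and cyclic AMP relay 1 of 10 genes rose. It was Pde3b, the phosphodiesterase that lets insulin oppose lipolysis, which was 0.63 higher on the log2 scale (adjusted p = 0.0319). Of 7 genes of thyroid hormone transport and action, Ncoa1, a nuclear receptor coactivator, rose by 0.43 (adjusted p = 0.0901). Among 18 activators of the brown program, Ppara, the fatty acid receptor that drives oxidation genes, rose by 0.76 (adjusted p = 0.0225), while Pparg, the master regulator of adipocytes, was 0.49 higher without passing (adjusted p = 0.101).

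Of 9 repressors of the brown program, 3 rose and 0 fell, and the median difference of the 9 was 0.35. Hoxc8, a homeobox gene of white fat that represses brown fat genes in the mouse, read 7.86, 7.74 and 7.65 with DHT and 6.78, 6.67 and 6.67 in controls. The groups were far apart, and it rose by 1.05 (SE 0.09, adjusted p = 0.00353). Zfp423, which restrains EBF2 and keeps white adipocytes white, rose by 0.38 (adjusted p = 0.0598), and Rbl1, the pocket protein p107, by 0.41 (adjusted p = 0.0741). Hoxc8 kept its call without any single array. Zfp423 lost its call in all 6 such fits and Rbl1 in 5 of the 6.

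Of 14 markers of brown and beige cells, Slc36a2, a proton-coupled amino acid transporter of the adipocyte surface, fell from 8.52, 8.46 and 8.57 in controls to 7.72, 7.40 and 7.17 with DHT, without overlap. The difference was -1.09 (SE 0.14, adjusted p = 0.0104). Of 24 heat effectors, Elovl3, a fatty acid elongase induced by cold in brown fat, fell most, from 5.77, 5.37 and 5.70 in controls to 4.23, 3.58 and 3.36 with DHT. Every DHT array was more than 1 unit below every control, and the difference was -1.89 (SE 0.22, adjusted p = 0.00732). Slc36a2 and Elovl3 kept their calls without any single array. Of 12 factors secreted by brown fat, Angptl4, an inhibitor of lipoprotein lipase, rose by 0.96 (SE 0.19, adjusted p = 0.0482), and lost the call for 3 of the 6 arrays when each was left out. Pde3b and Ppara lost theirs in 2 of the 6 fits, and Ncoa1 in 5.

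**Figure D4:**
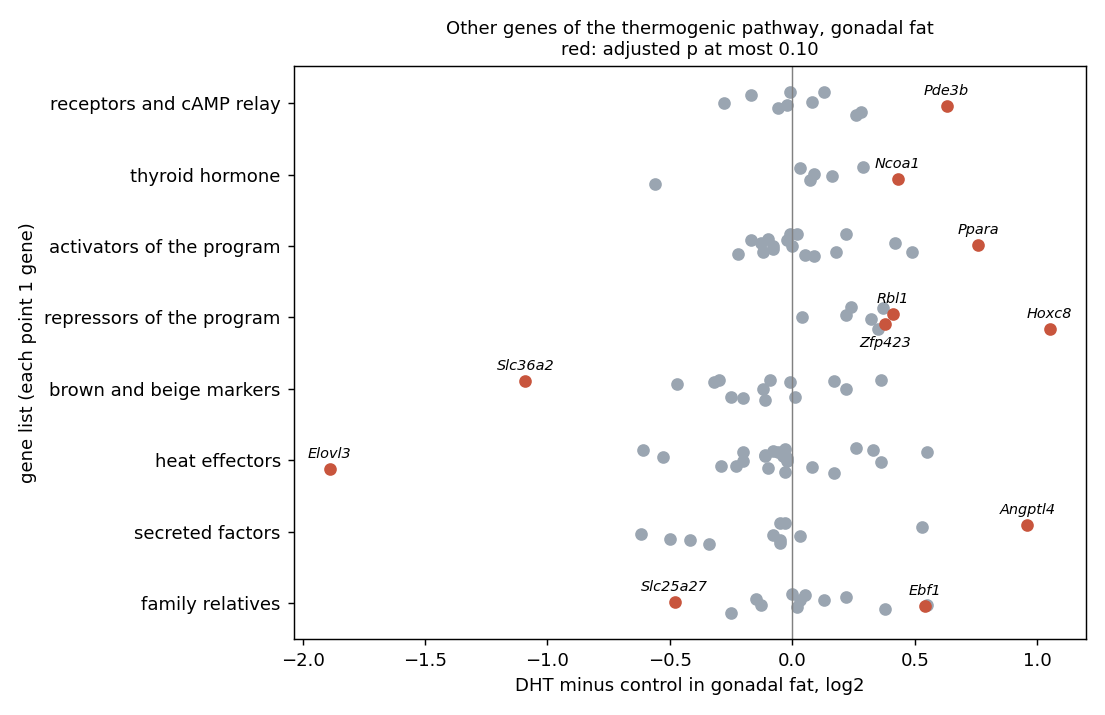
DHT minus control in gonadal fat, on the log2 scale, for the other genes of the thermogenic pathway and the family relatives of the members, 1 point per gene and 1 row per list, with red points for an adjusted p of at most 0.10. Elovl3 at -1.89 and Slc36a2 at -1.09 lie far to the left, and Hoxc8 at 1.05 far to the right.

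In the ovaries, none of the 8 genes tested rose or fell at an adjusted p of at most 0.10 (limma), where 1.26% of 19118 genes did (0.544% higher and 0.717% lower), and none was dysregulated, where 0.324% of genes were. Without adjustment 3 of the 8, Kcnk3, Dio2 and Ucp3, had a p under 0.05, where 13.3% of all genes did. Kcnk3 and Dio2, 2 of the 8, were lower with DHT without overlap between the groups, where 13.1% of all genes were lower in this way and 20.0% had groups that did not overlap in either direction. The median log2 difference of the 8 genes was -0.03, against 0 over all genes tested.

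Ucp1 was below the array median on all 6 ovary arrays, between 3.02 and 3.19, and was not tested there. Kcnk3 read 6.96, 7.48 and 7.34 with DHT and 7.82, 8.23 and 8.40 in controls, with every DHT array below every control. The difference was -0.89 (SE 0.19, 95% interval -1.34 to -0.43, limma adjusted p = 0.139). It passed with the spread taken from all 12 arrays (adjusted p = 0.0226) and with the stricter filter at the 75th percentile (adjusted p = 0.0959). Dio2 read 4.46, 4.52 and 4.50 with DHT and 4.81, 5.16 and 4.81 in controls, a difference of -0.43 (SE 0.11, 95% interval -0.69 to -0.18, limma adjusted p = 0.172).

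Ucp3 had a log2 difference of -0.18 (SE 0.07, adjusted p = 0.375), with DHT arrays at 4.72, 4.66 and 4.87 and controls at 4.99, 4.92 and 4.87. Prdm16 lay between 5.38 and 5.47 and Cpt1b between 5.06 and 5.25 on the 6 arrays. Ebf2, with the clearest change in fat, read 4.41, 4.34 and 4.53 with DHT and 4.52, 4.41 and 4.35 in ovaries of controls, a difference of 0.00 with an SE of 0.07.

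**Figure D5:**
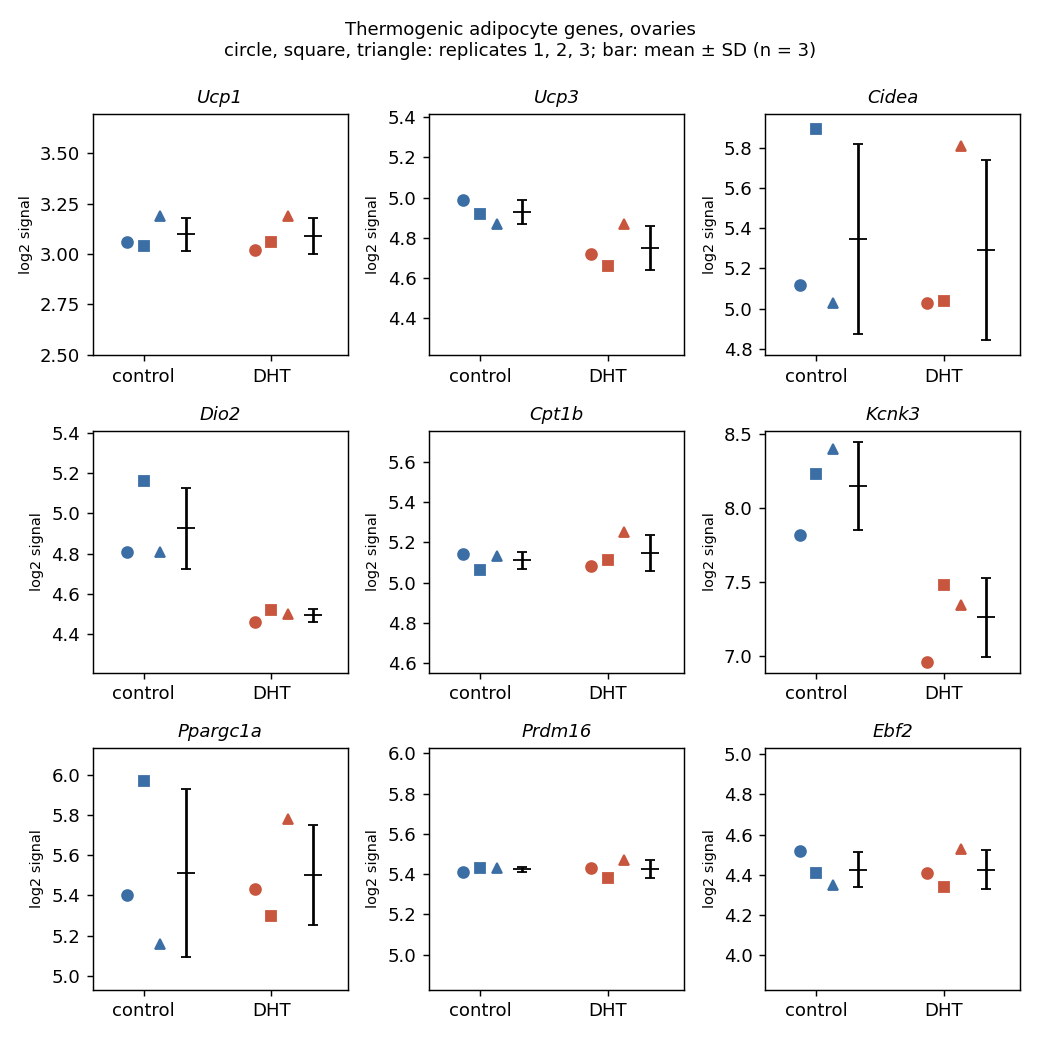
Log2 signal of the 9 genes on the 6 ovary arrays, drawn as for gonadal fat. Kcnk3 and Dio2 are lower with DHT without overlap, Ucp1 stays between 3.02 and 3.19, and Cidea is high on DHT replicate 3 and control replicate 2.

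Cidea and Ppargc1a were high on 1 array of each group in the ovaries. Cidea read 5.03, 5.04 and 5.81 with DHT and 5.12, 5.89 and 5.03 in controls, and Ppargc1a read 5.43, 5.30 and 5.78 with DHT and 5.40, 5.97 and 5.16 in controls. The high arrays, DHT replicate 3 and control replicate 2, also had the highest mean of 5 oviduct markers, 7.18 and 7.48 against 4.70 to 6.05 on the others. The differences were -0.05 (SE 0.30) for Cidea and 0.00 (SE 0.22) for Ppargc1a. Luteal markers, which label the corpora lutea formed after ovulation, were 6.51 to 7.13 with DHT and 9.26 to 11.34 in controls, and white adipocyte markers 5.93 to 6.37 against 6.47 to 7.10. The part of the luteal cells in the lower Kcnk3 and Dio2 was not tested. The adipocyte covariate was the mean of Adipoq, Retn, Plin1 and Cidec, which are among the white adipocyte markers. All were lower on average with DHT, with overlap between the groups for Adipoq and Cidec. A fit with this covariate therefore cannot tell their level from treatment. With the adipocyte mean as a covariate the Kcnk3 difference was -1.47 (adjusted p = 0.0233), from which no conclusion is drawn. With the oviduct mean, added after seeing the data, the Kcnk3 difference was -0.92 (adjusted p = 0.092) and that of Dio2 -0.46 (adjusted p = 0.0519). Without both oviduct-rich arrays Kcnk3 was -0.89 (adjusted p = 0.542) and Dio2 -0.32 (adjusted p = 0.412), and with the adipocyte covariate Dio2 was -0.54 (adjusted p = 0.394). The arrays kept were not free of oviduct transcripts. DHT replicate 2 had an oviduct mean of 6.05. The oviduct gene Ovgp1 read 10.27 there, against 5.31 on DHT replicate 1 and 5.55 and 5.14 on control replicates 1 and 3.

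Of the other pathway genes, 92 were tested in the ovaries, of which 2 rose and 4 fell (6.52% called against 1.26% of all genes). Here too the lists were chosen with earlier results known, so the higher share is no test of the pathway. These shares were not matched for signal level either, and with the 75th percentile filter 338 of 11759 genes were called. The heat effectors held 4 of the 6 called pathway genes. Fabp3, a fatty acid carrier of oxidative tissues, read 10.23, 10.06 and 10.12 with DHT and 7.96, 8.24 and 8.61 in controls and rose by 1.87 (adjusted p = 0.0147). Clstn3, whose locus also encodes the adipocyte form CLSTN3B, fell from 6.68 ± 0.13 in controls to 5.68 ± 0.12 with DHT (adjusted p = 0.018). Which form the cluster measures was not checked. Cpt1a, the liver-type carnitine palmitoyltransferase, fell by 0.44 (adjusted p = 0.0371), and Gamt, an enzyme of creatine synthesis, fell by 0.55 (adjusted p = 0.0388). The other 2 were Zbtb16, an activator of the brown program, which rose by 0.57 (adjusted p = 0.0962), and Prkaca, the catalytic subunit of protein kinase A, which fell by 0.38 (adjusted p = 0.0855). Fabp3 and Clstn3 kept their calls without any single array, and the other 4 lost theirs in 4 to 6 of the 6 fits. Both lost them in 3 other settings, the replicate block, the adipocyte covariate and the removal of both oviduct-rich arrays, with an adjusted p of up to 0.2495 for Fabp3 and 0.197 for Clstn3. With the mean of its clusters, the Fabp3 difference was 0.93.

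Whether the response differed between the tissues was tested directly, as the fat difference minus the ovary difference from all 12 arrays, for the 8 genes that passed the filter in both. Ebf2 alone of the 8 differed, by 0.98 (SE 0.12, limma adjusted p = 0.00194), where 6.14% of 18080 genes did. Its ovary signal lay near the array median, above it on 4 of the 6 arrays, so a response there may not show. For Kcnk3, lower with DHT in both tissues, the fat difference minus the ovary difference was 0.19 (SE 0.23, adjusted p = 0.684), and for Dio2 it was -0.01 (SE 0.36, adjusted p = 0.991). These errors are too wide to show that the tissues responded alike. Ucp3 (-0.32, adjusted p = 0.265), Cpt1b (-0.48, adjusted p = 0.283) and Cidea (-0.60, adjusted p = 0.61) did not pass either, and Ucp1 was not tested.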

How the data were processed

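RNA from 12 tissue samples was hybridised to Affymetrix mouse transcriptome arrays, 3 per group. The authors deposited 1 log2 value per transcript cluster and array, from 0.698 to 13.2. MAS5 is named in the submitters' processing notes. The scaling of the arrays is not stated in the sources read, and no further normalization was applied. Arrays have no read depth, so the number of arrays limits the precision. The limma p-values weigh each group difference against the spread between these arrays, moderated over all genes in the fit.

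Of 65929 clusters, 30638 carried 1 gene symbol in the platform annotation, 2176 several and 33115 none, and those with several or none were left out. For a gene with several clusters the one with the highest mean was used. In the fat columns 26501 clusters were re-paired by ordering cluster names with "_" placed before digits. Differences were tested within a tissue with limma 3.58.1 (lmFit and eBayes) in R 4.3.3, and plots used Python 3.11.15. The SAM method that the study's methods name was replaced by limma. The interaction was fitted with 4 group means and treated the 12 arrays as independent, and pairs entered it only as the replicate block. Marker means were compared with a two-sided exact permutation test. The limma fit within a tissue was tried on simulated data with known changes and independent errors for each gene. Shifts that many genes share on an array, as with oviduct or skeletal muscle transcripts, were not simulated.

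The members, the lists and the tests were chosen with earlier results of these data known. Named genes were the 10 members, genes drawn from those with the lowest adjusted p in each list (up to 4 a tissue), and the 5 genes most like Ucp1 in fat. Outside this rule lie Myh1, picked as the example for fat control replicate 3, and Tek and Emcn, which complete the endothelial list. Adipoq, a part of the adipocyte covariate, lies outside it too. Pairing by replicate number was checked on deviations around group means. Ovary and fat arrays that share a number were correlated across genes (r = 0.139, 0.156 and 0.192 with DHT, 0.114, 0.110 and 0.128 in controls), more than with any other number, so these were taken as pairs, which the labels do not state. DHT and control arrays of the same number were not paired. Alternatives were quantile normalization, median centring, other filters, the mean of a gene's clusters, an intensity trend, 1 fit of all arrays, the replicate block, other thresholds, the deposited order, undisplaced clusters alone, an adipocyte marker covariate in the ovaries and leaving out each array. The skeletal muscle and oviduct covariates, and leaving out both ovary arrays rich in oviduct transcripts, were added after seeing the data.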

Additional observations from a re-analysis of the deposited data

Results flagged for a closer look

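The effect of DHT on Ebf2 differed between the tissues. The gonadal fat difference minus the ovary difference was 0.98 on the log2 scale (limma interaction, SE 0.12, adjusted p = 0.00194), with Ebf2 higher in 3 of 3 DHT arrays than in any control in fat and overlapping groups in the ovaries. It stayed between 0.92 and 1.04 when each of the 12 arrays was left out in turn, and with the replicate number as a block its adjusted p was 0.0149.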

How the results depend on the processing

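The count of genes called in the ovaries, 241, was 439 with all 12 arrays in 1 fit, 3 with the replicate block, 87 at an adjusted p of at most 0.05, 99 at 2-fold and an unadjusted p of at most 0.01, 21 with the adipocyte covariate, 464 with the oviduct covariate, 4 without both oviduct-rich arrays, and 43 to 181 when 1 array was left out. In gonadal fat, 745 became 456 with median centring, 1923 with all 12 arrays, 1122 with the replicate block, 336 at 0.05, 123 at 2-fold and 0.01, 472 with undisplaced clusters alone, 258 with the skeletal muscle covariate, and 138 to 634 without 1 array. The block within a tissue joins arrays that share only a number. In the interaction, where ovary and fat arrays of the same number were taken as pairs, it changed no call among the thermogenic genes.

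Of the thermogenic genes, 1 was called in the ovaries with the 75th percentile filter (median difference -0.89, Kcnk3 being the single gene tested), 1 with all 12 arrays, 1 with the adipocyte covariate and 2 with the oviduct covariate, and 0 in each fit that left out 1 array, in which the median ran from -0.19 to 0.03. In fat, 3 became 0 at 2-fold and 0.01, 1 in the deposited order (median -0.17), and 1 to 4 without 1 array, with medians of -0.61 to -0.28. The interaction called 1 to 2 of them without 1 array.

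Directions turned where differences were near 0. In the ovaries Ebf2 was 0.10 and Prdm16 0.00 with the adipocyte covariate, and without both oviduct-rich arrays Cpt1b was -0.03 and Ppargc1a 0.09. In fat Ppargc1a was 0.05 with median centring, and the Dio2 interaction was 0.06 with quantile normalization. In the deposited order Angptl4 was -0.05, Ebf1 -0.02 and Hoxc8 -0.11, since that order puts another cluster's values under their names, and Ebf2 and Cidea did not pass the filter. Without 1 array, ovary differences ran from -0.31 to 0.22 for Cidea, -0.05 to 0.04 for Ebf2, -0.18 to 0.23 for Ppargc1a, -0.02 to 0.02 for Prdm16 and -0.01 to 0.07 for Cpt1b, the fat difference of Ppargc1a from -0.10 to 0.05, and the interactions from -0.31 to 0.24 for Dio2 and -0.25 to 0.16 for Ppargc1a. The cause of the other changes was not tested. Signal near the array median limits Dio2 in both tissues, Ebf2 in the ovaries, and Ucp1 and Elovl3 on the DHT arrays 2 and 3 of fat.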

Other observations

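Of 13 family relatives of the thermogenic genes tested in gonadal fat, 1 rose and 1 fell, where 2.65% of all genes rose and 1.22% fell. This list too was chosen with earlier results of these data known. Ebf1, the EBF factor abundant in all adipocytes, read 8.51, 8.63 and 8.65 with DHT and 8.05, 8.05 and 8.08 in controls, and rose by 0.54 on the log2 scale (SE 0.08, limma adjusted p = 0.0235), while Ebf3 was 0.22 higher without passing (adjusted p = 0.238). Leaving out each array in turn cost Ebf1 its call for 2 of the 6 arrays. Slc25a27, a mitochondrial carrier also called UCP4, fell by 0.48 (adjusted p = 0.0919) and lost its call for all 6. Cidec, the lipid droplet protein of white fat, was 0.38 higher with DHT (adjusted p = 0.123), and its relative Cidea had a difference of -0.66. In the ovaries 1 of 13 relatives fell, which was Cpt1a, where 0.717% of all genes fell.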
